A study of Drosophila melanogaster with 15 samples.

Results

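The 10 genes described here build the sensory cilium of hearing neurons, act in it or form the cap that holds its tip. Each gene was followed in nuclear RNA from photoreceptors of aging flies. They are nompA, nompB, nompC, iav, nan, Rfx, fd3F, tilB, btv and rempA. They were chosen by their function, with earlier results of these data known, and each symbol was matched to a FlyBase identifier in the deposited table of raw counts. All 10 of 10 symbols matched, of 17558 genes in the table. Of these, 8 passed the filter on low values and were tested together with 10678 genes in all, whereas nan and tilB did not pass it.

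Flies hear with Johnston's organ, a chordotonal organ in the second antennal segment. Each of its neurons ends in a cilium whose tip is held by an extracellular cap, and movement of the antenna pulls on that tip and opens cation channels in the ciliary membrane. The cilium is built and kept up by intraflagellar transport, in which kinesin carries cargo to the tip and a dynein carries it back, and its genes are switched on by a few transcription factors. Fly photoreceptors, in contrast, sense light with microvilli and have no such cilium.

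All flies carried the same transgenes in a white-eye mutant (w) background, UAS-GFP-Msp300KASH at attP2 and rh1-GAL4 on the third chromosome with a ry allele, and the labels call this genotype WT. The fusion protein, called KASH-GFP, marks the outer nuclear membrane, and Rh1-Gal4 drives it in the outer photoreceptors R1 to R6. The study's own work found the driver active in antennae as well, so nuclei of antennal sensory neurons may be among those purified. It concludes that photoreceptors predominate and that a minor share of the nuclei most likely came from mechanosensory neurons. It also reports no consistent pattern of change with age in genes specific to these neuron types. Male flies were kept at 25 °C under alternating light and dark (12:12), and heads were taken 10, 20, 25, 30 or 40 days after eclosion. No age had an untreated or other control group, and day 10 served as the reference. Each library pooled the heads of many males, and there were 3 libraries at each age except day 30, which had 2 because the study discarded the other for poor alignment.

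The 14 libraries held between 6213255 and 19819118 gene counts, with a median of 10951727. Levels are given as CPM, gene counts scaled to a common library total after TMM normalization, and 3 counts corresponded to between 0.148 and 0.463 CPM depending on the library. All 10 photoreceptor marker genes passed the filter, and their summed level ran from 81330 to 147919 CPM. Of the 6 olfactory neuron markers, 3 passed the filter, Or42b was at 0 in every library, and the sum ran from 7.75 to 21.5 CPM. In pooled nuclei like these, fewer cells of a type and less RNA per cell cannot be told apart.

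The genes lay on 5 chromosome arms of the BDGP6 assembly. On 2L were nompC (FBgn0016920, 5346200 to 5365760), nompB (FBgn0016919, 21578292 to 21589423), rempA (FBgn0260933, 553742 to 560310) and btv (FBgn0023096, 17962625 to 17982472), and on the X were iav (FBgn0086693, 6813978 to 6818156), fd3F (FBgn0264954, 3802316 to 3811040) and tilB (FBgn0014395, 22449737 to 22451463). nan (FBgn0036414) lay on 3L at 14186249 to 14189648, nompA (FBgn0016047) on 2R at 11310335 to 11318676, and Rfx (FBgn0020379) on 3R at 10361760 to 10378068. They were long genes. Their median span was 8533.5 bp against 2640 bp over the 10449 tested genes with an annotated span, and 9 of 10 were longer than that median. nompB carried 8 annotated transposable elements in its introns, 6 of them INE-1 copies, which covered 27.6% of its span and 0 bp of its exons. As few as 0.632% of tested genes had at least 8 elements, and 8.59% had at least 1. btv and fd3F had 1 element each, and the other 7 genes had none.

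Of the 10 genes, 5 overlapped another gene, always on the opposite strand, and counting was strand-specific. The longest overlap of exons was between rempA and Tspo, which shared 640 bp or 11.1% of the exons of rempA. Tspo, which encodes a mitochondrial translocator protein, rose with age (age test 1.16 on the log2 scale, adjusted p = 0.000277 by edgeR's quasi-likelihood test). fd3F shared 179 bp with lncRNA:CR44118, tilB shared 19 bp with wap, nompA shared 7 bp with CG43114, and btv shared none of its exon sequence with CG5674. Of these, wap, CG5674 and lncRNA:CR44118 were tested and did not pass the threshold in the age test, and CG43114 was not tested.

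To compare the genes with one another, levels were divided by the length of the merged exons. Rfx led with a mean of 15.9 CPM per kb over the 14 libraries, above the level of 72.5% of tested genes. nompB followed with 8.66 CPM per kb, and these were the only 2 of the 10 genes above the median tested gene, which stood at 6.85 CPM per kb. rempA came next at 4.03, then nompA at 1.81, fd3F at 1.26, btv at 0.890 and nompC at 0.722 CPM per kb. The channels iav and nan and the dynein assembly factor tilB stood at the bottom with 0.229, 0.0246 and 0.196 CPM per kb. Of the 3 channels, nompC was counted between 22 and 136 times in every library, while iav and nan reached at most 19 and 5 counts.

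**Figure D1:**
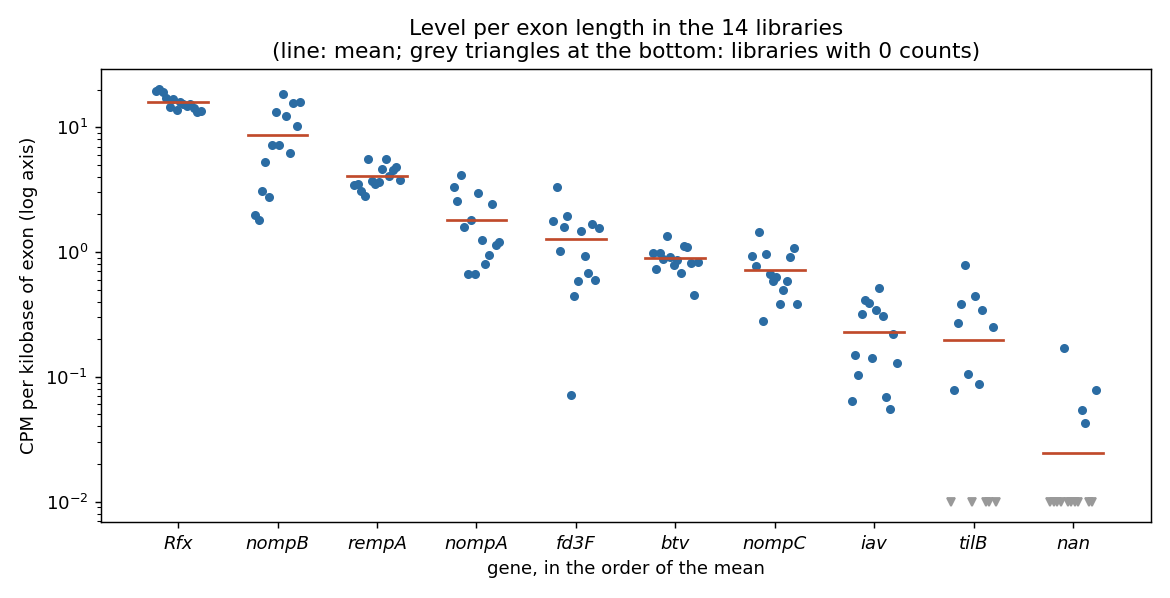
Level of each gene per exon length (CPM per kilobase, log axis) in each of the 14 libraries, with the genes in the order of their mean, which a line marks. Rfx stays within a narrow band, nompB spreads from 1.82 to 18.6 CPM per kb, and nan is at 0 counts in 10 libraries and tilB in 5 (grey triangles).

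The place of nompB in this order differed between ages. At day 10 nompB stood 4th with 2.29 CPM per kb, and its libraries overlapped those of nompA, whose mean was 3.32, and fd3F, whose mean was 2.03. At day 40 it stood 1st with 13.9 CPM per kb and overlapped Rfx at 13.6. Rfx was above every other gene in every library at days 10, 20 and 30, and rempA held place 2 or 3 at each age. Among the lower genes most neighbours in the order overlapped, and so did nompA and fd3F at each age, with nompB between them at day 10.

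Age was tested with edgeR's quasi-likelihood test of a linear and a squared term over the 14 libraries, with Benjamini-Hochberg adjustment over the 10678 tested genes and a threshold of 0.05. The change is the fitted value at day 40 less that at day 10. nompB rose and Rfx fell, and the other 6 tested genes did not pass the threshold. These 2 of 8 genes stand beside 8.35% of all tested genes, with 4.92% higher and 3.44% lower. At an unadjusted p under 0.05 there were 4 of 8, with nompA and nompC added, against 24.1% of all tested genes. The median change of the 8 genes was -0.38, with 3 values above 0 and 5 below, and that of all tested genes was 0.01.

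**Figure D2:**
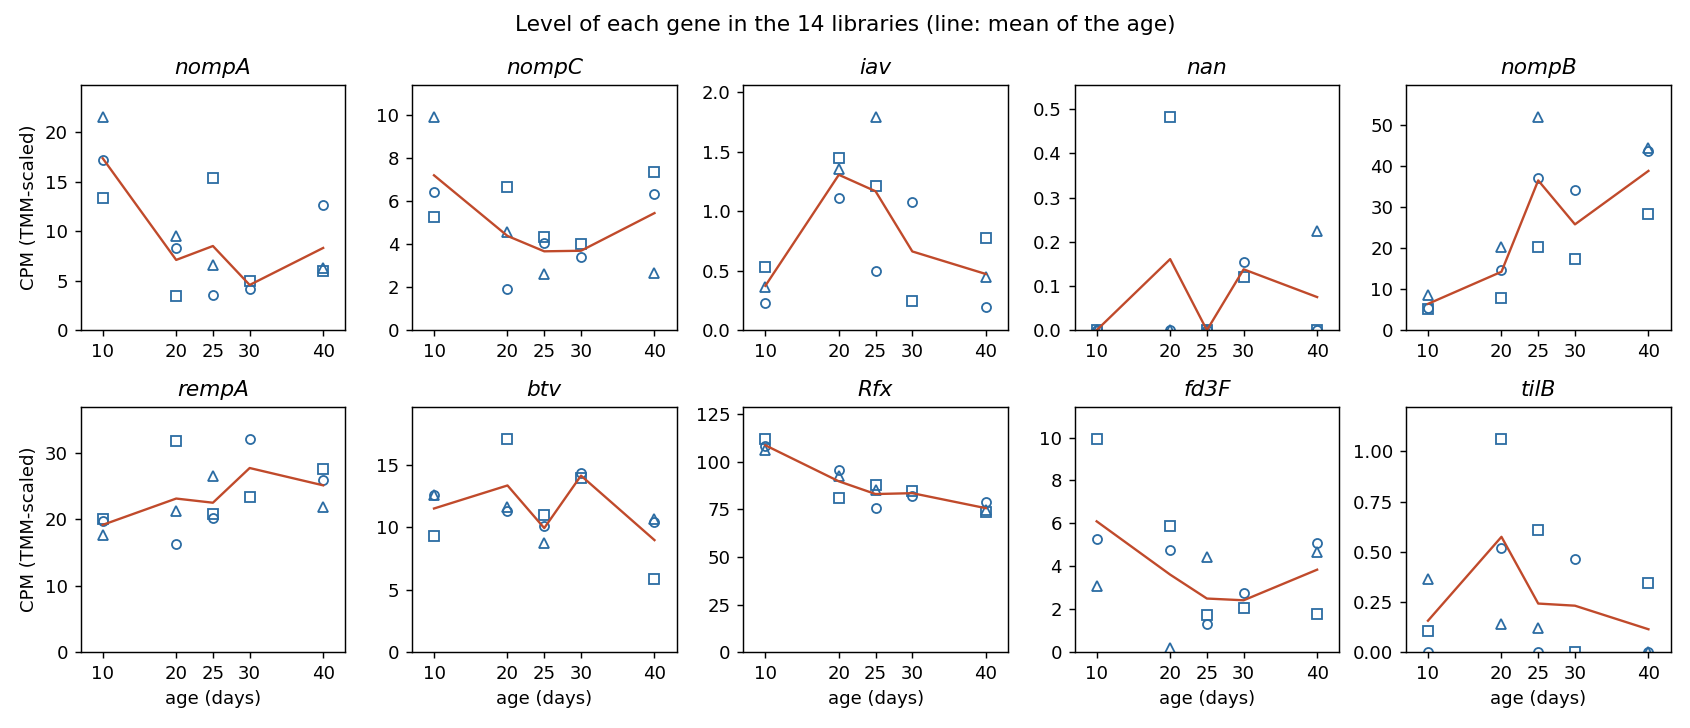
CPM of each of the 10 genes against age in days, with 1 point for each library (circle, square and triangle for table columns numbered 1, 2 and 3) and a line through the mean of each age; each panel has its own axis from 0. nompB climbs from between 5.07 and 8.61 CPM at day 10 to between 28.3 and 44.4 CPM at day 40, and Rfx declines from between 106 and 112 CPM to between 73.7 and 78.6 CPM.

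The first group by role comprises the transduction channels and the cap protein. nompC encodes a TRPN channel that opens under mechanical force. Its level was 6.42, 5.28 and 9.93 CPM in the day 10 libraries, 1.93, 6.66 and 4.57 at day 20, 4.06, 4.33 and 2.63 at day 25, 3.40 and 3.997 at day 30, and 6.33, 7.38 and 2.64 at day 40. The libraries of days 25 and 30 were all below those of day 10, while those of days 20 and 40 overlapped them. Its log2 change in the age test was -0.45 (adjusted p = 0.194 by edgeR's quasi-likelihood test), and the lowest values of its course were at days 25 and 30, at -0.96 ± 0.439 (SE) and -0.97 ± 0.519 from day 10, with adjusted p of 0.327 and 0.448 in edgeR.

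iav and nan encode the 2 TRPV channel subunits of hearing neurons, which depend on each other for their place in the cilium. iav had between 2 and 19 counts in every library. Its level was 0.225, 0.528 and 0.365 CPM at day 10, 1.11, 1.45 and 1.36 at day 20, 0.495, 1.22 and 1.79 at day 25, 1.08 and 0.242 at day 30, and 0.195, 0.772 and 0.450 at day 40. The day 20 libraries were all above the day 10 libraries, and those of the other ages overlapped them. The difference at day 20 was 1.77 ± 0.841 on the log2 scale (adjusted p = 0.612, edgeR), and from day 10 to day 40 it was 0.34 ± 0.869 (adjusted p = 0.854). Its change in the age test was 0.05 (adjusted p = 0.262) and changed sign in other fits. nan had 5 counts in 1 day 20 library, 1 count in each day 30 library and 4 counts in 1 day 40 library. The other 10 libraries had 0 counts, so that no change of nan with age was detectable at this depth.

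nompA encodes the zona pellucida domain protein of the dendritic cap, which is made by a support cell and not by the neuron. It had 17.2, 13.3 and 21.5 CPM at day 10, 8.30, 3.47 and 9.51 at day 20, 3.51, 15.4 and 6.57 at day 25, 4.17 and 4.97 at day 30, and 12.7, 6.005 and 6.24 at day 40. The level was below every day 10 library in 10 of the 11 later libraries, and library 2 of day 25 was the exception. The log2 change in the age test was -1.09, which missed the threshold in edgeR (adjusted p = 0.0592). It passed the threshold in 5 of 25 alternative fits. These included DESeq2 (adjusted p = 0.0119), limma-voom (adjusted p = 0.0269) and edgeR with no filter (adjusted p = 0.00541). The others were edgeR without library 2 of day 25 (adjusted p = 0.00588) and without library 1 of day 40 (adjusted p = 0.0391). In the remaining fits it did not pass, with adjusted p up to 0.198 in edgeR without library 3 of day 10. From day 10 the difference was -1.28 ± 0.451 at day 20, -1.04 ± 0.448 at day 25, -1.92 ± 0.559 at day 30 and -1.08 ± 0.449 at day 40, with adjusted p of 0.451, 0.30, 0.114 and 0.139 in edgeR. The spread within an age was wide, with an SD of 6.18 CPM around a mean of 8.50 CPM at day 25.

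Of the 3 genes of ciliary transport, nompB alone passed the threshold in the age test. nompB encodes the fly IFT88, a core part of the complex that carries cargo to the tip of the cilium. Its level was 5.52, 5.07 and 8.61 CPM at day 10, 14.7, 7.72 and 20.2 at day 20, 37.1, 20.3 and 51.9 at day 25, 34.1 and 17.3 at day 30, and 43.5, 28.3 and 44.4 at day 40. The libraries of days 25, 30 and 40 were all above those of day 10, and at day 20 only library 2 was not. In the age test nompB was 2.62 higher on the log2 scale (adjusted p = 0.00186, edgeR), and only 0.599% of tested genes had a log2 change at least as large.

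The rise of nompB was past the threshold from day 25. The difference from day 10 was 1.14 ± 0.381 (SE, log2) at day 20 with an adjusted p of 0.440, 2.48 ± 0.384 at day 25 with 0.0039, 1.98 ± 0.416 at day 30 with 0.0369 and 2.58 ± 0.384 at day 40 with 0.000655, all from edgeR's quasi-likelihood test. At day 40 this was 5.97-fold, and from day 30 to day 40 the difference was 0.60 ± 0.403 (adjusted p = 0.726). With its 2 libraries, the day 30 call was lost in limma-voom (adjusted p = 0.142), with library size as a covariate (adjusted p = 0.0823) and in edgeR without any of 5 libraries, namely library 1 of day 10 (adjusted p = 0.130), library 2 of day 10 (adjusted p = 0.144), library 1 of day 25 (adjusted p = 0.0619), library 1 of day 30 (adjusted p = 0.302) or library 1 of day 40 (adjusted p = 0.0522). The number of read pairs that the counting assigned to no feature differed between ages. It ran from 60.7 to 103 per 100 gene counts at day 10 and from 42.4 to 56.4 at day 40. With that ratio as a covariate the day 40 difference of nompB was 2.18 with an adjusted p of 0.0588. The ratio's part in the day 40 result cannot be told apart from that of age, since days 10 and 40 did not overlap. At day 30 the ratio was between 111.6 and 111.9, above that of day 10. With the covariate nompB was 2.22 higher at day 30 than at day 10 (adjusted p = 0.0133, edgeR). Its change in the age test with the covariate was 2.28 (adjusted p = 0.00397, edgeR).

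rempA encodes the fly IFT140, a core part of the complex that carries cargo back. It had 19.8, 20.1 and 17.7 CPM at day 10, 16.3, 31.8 and 21.3 at day 20, 20.2, 20.8 and 26.5 at day 25, 32.1 and 23.4 at day 30, and 26.0, 27.5 and 21.9 at day 40. In 10 of the 11 later libraries it was above every day 10 library, and library 1 of day 20 was below them all. The log2 change was 0.42 in the age test (adjusted p = 0.349, edgeR) and 0.39 ± 0.219 at day 40 (adjusted p = 0.288). The part of Tspo, on the other strand of some of its exons, was not tested.

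btv encodes the heavy chain of cytoplasmic dynein 2, the motor that drives the return. Its level was 12.6, 9.30 and 12.6 CPM at day 10, 11.3, 17.1 and 11.7 at day 20, 10.1, 11.01 and 8.72 at day 25, 14.4 and 13.9 at day 30, and 10.4, 5.83 and 10.7 at day 40. The day 40 libraries overlapped those of day 10 and lay below both libraries of day 30. The log2 difference from day 30 to day 40 was -0.65 ± 0.280 (adjusted p = 0.434, edgeR), and that from day 10 to day 40 was -0.36 ± 0.251 (adjusted p = 0.408).

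Of the transcription factors, Rfx passed the threshold and fd3F did not, and the difference between their courses was not tested. Rfx encodes a factor that binds X-box sites in the promoters of genes needed to build cilia. It had 108, 112 and 106 CPM at day 10, 95.5, 81.1 and 92.8 at day 20, 76.0, 88.1 and 85.2 at day 25, 82.2 and 84.9 at day 30, and 78.6, 73.7 and 74.7 at day 40. All 11 later libraries were below every day 10 library. Rfx fell by 0.51 on the log2 scale in the age test (adjusted p = 0.00946, edgeR), and the difference at day 40 was -0.52 ± 0.116 (SE; 0.696-fold, adjusted p = 0.00904).

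The fall of Rfx was small but the libraries of an age lay close together, with an SD of 3.06 CPM around a mean of 109 at day 10 and of 2.63 around 75.7 at day 40. At day 20 the difference was -0.28 ± 0.116 (adjusted p = 0.550, edgeR), at day 25 it was -0.39 ± 0.116 (adjusted p = 0.117) and at day 30 it was -0.38 ± 0.132 (adjusted p = 0.196). With library size as the only scaling the change in the age test was -0.38 (adjusted p = 0.106) and that at day 40 was -0.41 (adjusted p = 0.0543), while the median of all tested genes moved up by 0.12 and 0.11. With the ratio of pairs on no feature as a covariate the day 40 difference was -0.51 with an adjusted p of 0.191. The change in the age test with that covariate was -0.47 (adjusted p = 0.0405, edgeR).

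fd3F encodes a forkhead factor that works with Rfx to turn on the genes particular to hearing cilia. It had 5.29, 9.93 and 3.07 CPM at day 10, 4.74, 5.89 and 0.214 at day 20, 1.34, 1.75 and 4.42 at day 25, 2.78 and 2.06 at day 30, and 5.07, 1.80 and 4.67 at day 40. The lowest of these, library 3 of day 20, held 3 counts. Only the day 30 libraries were all below those of day 10, and the log2 change in the age test was -0.74 (adjusted p = 0.374, edgeR).

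tilB encodes a factor that assembles axonemal dynein arms before they enter the cilium. It had 0, 1 and 5 counts at day 10, 7, 11 and 2 at day 20, 0, 8 and 1 at day 25, 3 and 0 at day 30, and 0, 4 and 0 at day 40. It was at 0 in 5 libraries spread over 4 ages, and its highest level was 1.06 CPM. No difference between ages was detectable at this depth.

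Taken by age, none of the 8 tested genes passed the threshold between days 10 and 20 in edgeR, against 0.00937% of all tested genes, and DESeq2 and limma-voom also gave 0. At an unadjusted p under 0.05 there were 4 in edgeR, namely nompA, nompB, Rfx and iav, against 8.10% of all tested genes. Between days 10 and 25 nompB alone passed, against 0.974% of all tested genes and 0.712% that were higher, and between days 10 and 30 again nompB alone, against 0.871% and 0.571% higher. Between days 10 and 40 nompB and Rfx passed, against 10.4% of all tested genes, of which 5.78% were higher and 4.64% lower. From day 30 to day 40 edgeR called 0 of 8, against 1.11%, DESeq2 and limma-voom called 0 as well, and btv was the 1 gene at an unadjusted p under 0.05, against 9.96%. All comparisons with day 10 share its libraries.

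**Figure D3:**
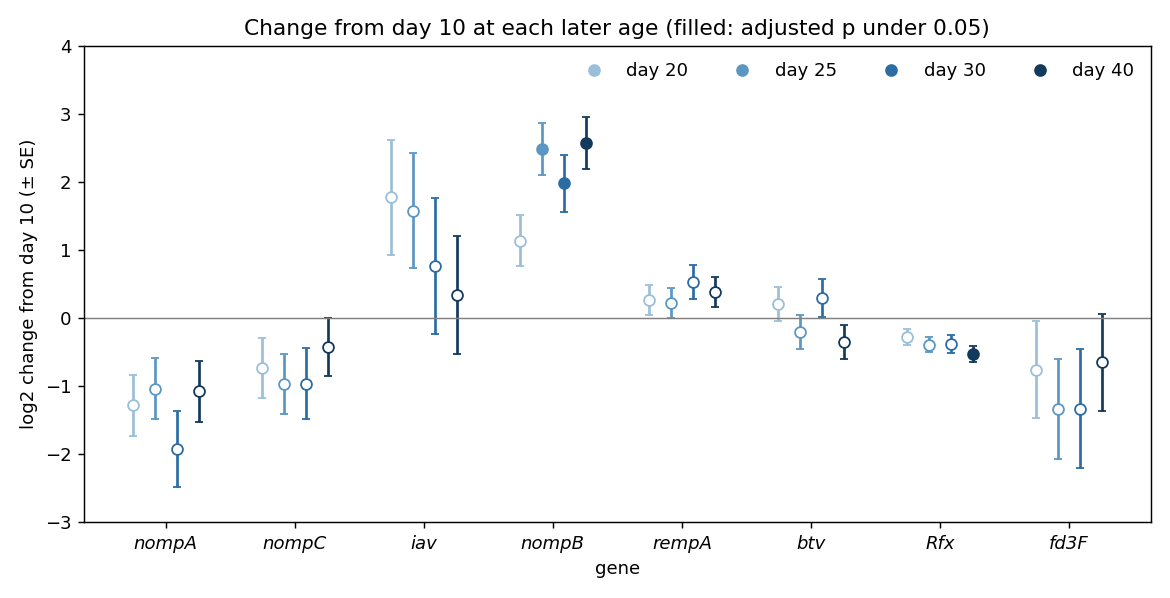
Log2 change from day 10 at days 20, 25, 30 and 40 for the 8 tested genes, with the SE as bars; filled points have an adjusted p under 0.05 in edgeR. nompB has filled points at days 25, 30 and 40 and Rfx at day 40, and the long bars of iav and fd3F reflect their few counts.

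Counted by library rather than by test, the 3 day 40 libraries were all above the 3 day 10 libraries for nompB and rempA, as they were for 15.6% of all tested genes. They were all below them for nompA and Rfx, as they were for 12.9% of all tested genes. For the other 4 tested genes the 2 ages overlapped.

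To see how other genes of the cilium behaved, 5 further lists were drawn up, of which 48 genes were in the table and 32 were tested. In the age test 3 rose and 0 fell, or 9.38% against 8.35% of all tested genes, and the same 3 passed between days 10 and 40. Of other genes of touch and of the chordotonal organ, which include the channels Piezo and pain and the lumen protein eys, 0 of 7 passed in edgeR and 1 had an unadjusted p under 0.05. Of other intraflagellar transport genes 1 of 10 rose, of transition zone, basal body and BBSome genes 1 of 7, and of axonemal dynein and motility genes 1 of 8. The chordotonal transcription factor genes ato and cato were not tested, and their summed level stayed at or below 0.390 CPM. Of the transition zone genes, 8 of 15 did not pass the filter, and tctn and B9d2 were at 0 in every library.

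The genes that rose belong to different parts of the cilium. Dhc62B, which encodes an axonemal dynein heavy chain, had 3.27, 6.45 and 4.53 CPM at day 10 and 16.8, 17.7 and 33.1 CPM at day 40. Every later library was above every day 10 library, and the change in the age test was 2.25 on the log2 scale (adjusted p = 0.000708, edgeR). Oseg4, which encodes a member of the complex that carries cargo back, had 3.04, 1.80 and 1.46 CPM at day 10 and 6.04, 5.75 and 8.66 CPM at day 40. Its change was 1.71 (adjusted p = 0.00473), and at day 25 it was already 1.80 ± 0.365 (adjusted p = 0.0238). It shares 115 bp of exon with drpr on the same strand, where pairs cannot be assigned to either gene.

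BBS9, which encodes a subunit of the BBSome, the coat that moves membrane proteins in the cilium, had 3.49, 2.32 and 2.70 CPM at day 10 and 6.24, 5.15 and 9.78 CPM at day 40. The groups did not overlap, and the change in the age test was 1.48 (adjusted p = 0.0313, edgeR). The call was lost without library 3 of day 40 (1.23, adjusted p = 0.155) and without library 2 of day 10 (1.41, adjusted p = 0.0824), in limma-voom (adjusted p = 0.0536), with the replicate block (adjusted p = 0.055) and with the ratio of pairs on no feature as a covariate (adjusted p = 0.099). For the change from day 10 to day 40, at 1.32 ± 0.365 (adjusted p = 0.0281), it was lost without any library of day 10 (adjusted p between 0.0518 and 0.108) or without library 3 of day 40 (adjusted p = 0.156), with the replicate block (adjusted p = 0.0515) and with the no-feature covariate (0.96, adjusted p = 0.572). The day 40 call of Dhc62B was also lost with that covariate (1.75, adjusted p = 0.0977).

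**Figure D4:**
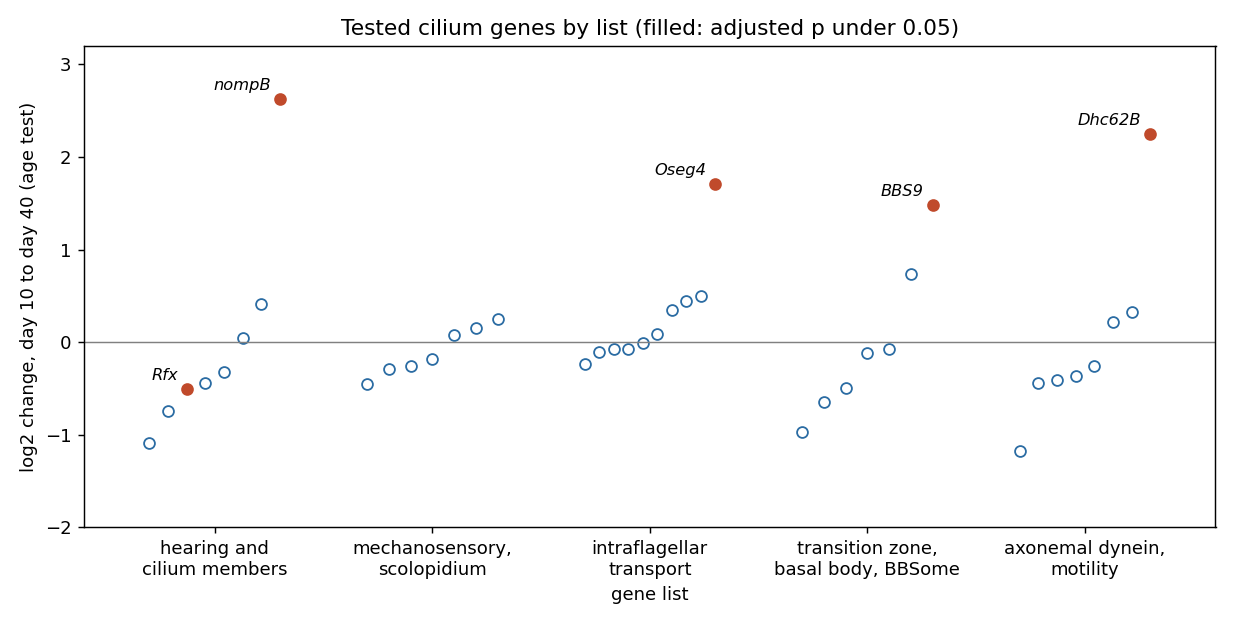
Log2 change from day 10 to day 40 in the age test for each tested gene of the hearing and cilium set and of the 4 other cilium lists with tested genes, with genes in rising order within a list; filled points have an adjusted p under 0.05 in edgeR and are named. Of the 40 points, 4 are filled above 0 and 1, Rfx, below 0.

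Markers of other cells were measured beside these genes. Some of the photoreceptor markers are phototransduction genes that the study lists as expressed in the auditory organ as well. None of the 10 photoreceptor markers and none of the 3 tested olfactory markers passed the threshold in the age test in edgeR, with 2 and 0 at an unadjusted p under 0.05. The sum of the olfactory markers was between 9.01 and 19.8 CPM at day 10 and between 12.7 and 21.5 CPM at day 40. Of 4 tested muscle markers 1 rose, the myosin light chain gene Mlc2 (1.00, adjusted p = 0.00824), and their sum was between 198 and 445 CPM at day 10 and between 491 and 661 CPM at day 40. Of 4 tested fat body and female markers 1 rose in the age test, the yolk protein gene Yp1, and 2 rose between days 10 and 40. Yp1 differed widely between libraries of the same age, from 1.39 to 53.8 CPM at day 30 and from 0.944 to 57.3 CPM at day 40. The sum of these markers was between 77.3 and 154 CPM at day 10 and between 119 and 357 CPM at day 40. Of 4 tested neuronal markers Syt1 fell, and of 5 glial markers alrm fell, with changes of -0.78 in each case. At an unadjusted p under 0.05 in edgeR's age test there were 2 muscle, 3 fat body and female, 2 neuronal and 1 glial markers. Between days 10 and 40 these counts were 3, 4, 2 and 1. Of all tested genes, 24.1% and 25% were under 0.05 in these comparisons. The part of these markers in the results on nompB, Rfx, Dhc62B, Oseg4 and BBS9 was not tested.

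For the 2 genes that passed both the age test and the comparison of days 10 and 40, the tested genes with the most similar course were sought among 5778 genes with a mean of at least 10 CPM. Likeness was the root mean square difference of log2 CPM over the 14 libraries, after each gene was centred. For nompB, whose own values varied by 1.09 around their mean, the nearest were the cytochrome P450 gene Cyp4p3 at 0.442, CR43281 at 0.486 and CG10126 at 0.507. Cyp4p3 rose from a mean of 4.82 CPM at day 10 to 24.1 CPM at day 40. For Rfx, whose values varied by 0.193, the nearest were CG2924 at 0.0939, Vha68-1 at 0.103 and Syp at 0.104. CG2924 fell from a mean of 122 CPM at day 10 to 79.4 CPM at day 40, and neither Vha68-1 (a subunit of the vacuolar proton pump) nor Syp (an RNA-binding protein) passed the threshold in the age test.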

How the data were processed

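Nuclear RNA of 15 libraries was sequenced in pairs, and 14 were used. Per the submitters' processing notes and the study's methods, reads were trimmed with Trimmomatic, aligned to BDGP6 with TopHat and counted per gene with HTSeq in strand-specific mode. The authors deposited these as raw counts, with no normalization. A filtered count table and its CPM were not used. Table columns give the age and a number; which sample columns 1 and 2 of an age hold is not settled, so libraries are named by column number.

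A gene was tested where at least 3 libraries exceeded 1 CPM, which kept 10678 genes, in edgeR 4.0.16 (R 4.3.3) with TMM scaling, as a linear and squared course in age and as contrasts between ages, with Benjamini-Hochberg adjustment at 0.05. All ages shared 1 estimate of the spread. DESeq2 1.42.0, limma-voom (limma 3.58.1), other filters and scalings, covariates, a replicate block and leaving out each library were the alternatives. Scripts were tested on simulated data. Read pairs on no feature stayed out of library sizes; they came to between 42.4 and 112 per 100 gene counts. Symbols, positions and exon lengths came from Ensembl 115 (BDGP6.54), which named 17252 of the 17558 genes. Of 100 listed symbols 96 matched, 2 of them through a synonym. No pair of libraries of an age was a duplicate. Column numbers did not pair the libraries of different ages.

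The labels call the libraries biological replicates. The 10 genes and the lists were chosen with earlier results of these data known. Named in the text are the 10 genes, list genes past the threshold in the age test or between days 10 and 40, genes that overlap the 10, and the 3 nearest courses to each called gene. Piezo, pain and eys were named as examples of their list.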

Additional observations from a re-analysis of the deposited data

Results flagged for a closer look

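The library of day 30 that the study discarded, replicate 3, held 518520 gene counts and entered no comparison of the report, only 1 of the alternative fits. Several of the genes were still counted in it above the 3 counts taken as the floor. There were 43 counts of Rfx, 12 of rempA, 9 of nompB, 5 of nompA, 5 of nompC and 4 of btv, while fd3F had 1 count and iav, nan and tilB had 0. Over its plain total of gene counts, without TMM scaling, Rfx was at 82.9 CPM and nompB at 17.4 CPM. The other day 30 libraries, with TMM scaling, had 82.2 and 84.9 CPM for Rfx and 34.1 and 17.3 CPM for nompB. These are on a different scale from the values of the discarded library.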

How the results depend on the processing

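nompB passed the age test in all 25 alternatives (adjusted p up to 0.0129) and Rfx in 24 of 25. Of the 8 tested genes, 2 passed the age test, and 1 did with library size as the only scaling (between 2 and 3 with a library left out). For day 20, 2 passed with no filter in place of 0 (0 with any library left out). For day 25, 2 passed in DESeq2 and 2 with no filter in place of 1 (1 with any library left out). For day 30, 3 passed in DESeq2, 2 with no filter, and 0 in limma-voom or with log2 library size as covariate, in place of 1 (between 0 and 1 with a library left out). For day 40, 1 passed with library size only and 0 with the ratio of pairs on no feature as covariate, in place of 2 (2 with any library left out). Over all tested genes, calls at day 20 went from 1 to 128 with no filter. At day 25 they went from 104 to 391 in DESeq2 and 460 with no filter. At day 30 they went from 93 to 373 in DESeq2, 403 with no filter, 35 in limma-voom and 55 with the library size covariate. At day 40 they went from 1112 to 1094 with library size only and 197 with the no-feature covariate. Library size only moved the split of all called genes in the age test from 525 higher and 367 lower to 708 and 182. The change of iav in the age test turned to -0.37 in limma-voom, -0.29 with the no-feature covariate, -0.28 with a straight line in age and -0.0043 with day 30 replicate 3, and ran from -0.46 to 0.32 with a library left out. At day 40 it ran from -0.14 to 0.69, and fd3F turned to 0.24 with the no-feature covariate. nompA passed the age test with no filter (adjusted p = 0.00541, edgeR). Of the other cilium genes, for which the alternatives were chosen after seeing the data, 5 passed the age test with no filter and 5 with day 30 replicate 3 (between 2 and 4 with a library left out), and 1 passed day 40 with the no-feature covariate (between 2 and 3). The cause of these differences was not tested.

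With the column number as a replicate block, 2 genes passed the age test, 0 day 20, 1 day 25, 1 day 30, 2 day 40 and 0 the step from day 30 to 40, and the block changed no call of the 10 genes; of the other cilium genes 2 passed the age test, BBS9 no longer among them (adjusted p = 0.055, edgeR; 0.0515 for day 40). Over all tested genes the block gave 676 calls in the age test in place of 892, and 863 at day 40 in place of 1112. After the mean of each age was taken out of log2 CPM, libraries of different ages with the same number correlated between -0.164 and 0.130. Those with different numbers correlated between -0.169 and 0.206. Of these 52 pairs 11 were over 0.1, against 1 of the 26 pairs with the same number. By this measure, 2 of the 14 libraries correlated best with their own number. Depth limits nan, tilB and iav, which had at most 5, 11 and 19 counts.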
